A study of Mus musculus with 4 samples.

Results

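The core circadian clock genes were taken as the rows named Arntl, Clock, Npas2, Per1, Per2, Per3, Cry1, Cry2, Nr1d1 and Dbp. All 10 were listed among the 35869 genes of the series, and 9 of them were among the 16849 genes tested. RNA-seq was performed on CD45+ cells, the immune cell fraction held back by CD45 microbeads, from the epididymal white adipose tissue (eWAT) of male WT C57BL/6 mice. The mice received a normal diet (ND) with 10% of calories from fat or a high-fat diet (HFD) with 60% for 12 weeks from 8 weeks of age, and 2 libraries were sequenced per diet. How many mice went into a library and the time of day of collection are not given in the sources used here, so the p-values below measure only the spread between these libraries.

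The clock of mammalian cells is a feedback loop of transcription. A positive limb, in which BMAL1 (the product of Arntl) pairs with CLOCK or with its close relative NPAS2, binds E-box elements and switches on the Per and Cry genes. The PER and CRY proteins, the negative limb, return to the nucleus and inhibit this pair, so that messages of the limbs rise and fall at different times of the day. In a stabilizing loop, REV-ERBα (Nr1d1) represses Arntl through RORE elements that the ROR proteins occupy as activators, and Dbp, itself an E-box target, carries the rhythm to output genes through D-box elements. Macrophages and adipose tissue both run this clock, and in macrophages it gates cytokine and chemokine genes.

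The promoter windows of 5 members hold at least 1 of these elements, and those of Npas2, Cry2, Nr1d1 and Dbp hold none. RefSeq windows for GRCm38.p6, from 250 bases before a start site to 50 bases after it, were found for 9 of the 10 members, with 13 windows in all, and none was listed for Per2. The E-box was searched as CACGTG, the D-box as TTATGTAA or TTACGTAA, and the RORE core as AGGTCA, each on both strands. The 5 windows printed here are those of Npas2, the only member called between the diets, of Arntl, its partner, and of 3 negative limb genes that hold E-boxes or D-boxes. In the same build, Clock lies on chromosome 5 from 76209868 to 76304792, Per2 on chromosome 1 from 91415982 to 91459324 and Cry2 on chromosome 2 from 92403646 to 92434043. Nr1d1 lies on chromosome 11 from 98767932 to 98775333 and Dbp on chromosome 7 from 45705088 to 45710203 (GENCODE vM21). In the windows, capitals mark the matches, and each window reads 5′ to 3′ on the strand of its gene.
Npas2, chr1:39194022-39194321, plus strand: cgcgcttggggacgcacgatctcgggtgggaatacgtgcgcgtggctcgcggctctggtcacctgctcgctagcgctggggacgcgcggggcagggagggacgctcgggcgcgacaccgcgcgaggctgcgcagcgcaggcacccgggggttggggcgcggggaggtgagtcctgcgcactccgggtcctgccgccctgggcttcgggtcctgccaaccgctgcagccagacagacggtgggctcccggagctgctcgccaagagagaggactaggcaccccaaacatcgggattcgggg
Arntl, chr7:113207261-113207560, plus strand: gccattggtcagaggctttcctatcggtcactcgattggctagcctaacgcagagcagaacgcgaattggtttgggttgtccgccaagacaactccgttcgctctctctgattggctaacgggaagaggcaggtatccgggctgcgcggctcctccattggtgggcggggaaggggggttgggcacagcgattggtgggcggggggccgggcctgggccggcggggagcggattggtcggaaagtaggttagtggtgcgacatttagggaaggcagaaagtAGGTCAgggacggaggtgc
Per1, chr11:69098699-69098998, plus strand: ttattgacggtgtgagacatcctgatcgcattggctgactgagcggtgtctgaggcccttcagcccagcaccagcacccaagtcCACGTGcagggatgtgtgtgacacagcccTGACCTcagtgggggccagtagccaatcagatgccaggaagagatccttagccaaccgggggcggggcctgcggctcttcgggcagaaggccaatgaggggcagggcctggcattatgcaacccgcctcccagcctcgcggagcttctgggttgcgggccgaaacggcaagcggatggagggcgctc
Cry1, chr10:85185005-85185304, minus strand: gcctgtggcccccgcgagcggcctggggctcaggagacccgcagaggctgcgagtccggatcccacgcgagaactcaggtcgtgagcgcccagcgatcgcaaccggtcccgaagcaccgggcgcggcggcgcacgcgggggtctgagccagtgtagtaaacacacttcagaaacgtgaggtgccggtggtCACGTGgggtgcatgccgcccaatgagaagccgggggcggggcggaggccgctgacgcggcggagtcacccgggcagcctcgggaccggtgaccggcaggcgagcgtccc
Per3, chr4:151044616-151044915, minus strand: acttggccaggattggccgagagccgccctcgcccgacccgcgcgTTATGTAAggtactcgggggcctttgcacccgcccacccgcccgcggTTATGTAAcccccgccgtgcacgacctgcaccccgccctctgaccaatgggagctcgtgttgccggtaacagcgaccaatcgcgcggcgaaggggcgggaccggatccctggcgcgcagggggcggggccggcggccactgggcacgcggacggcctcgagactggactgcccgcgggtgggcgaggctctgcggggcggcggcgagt

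Per1 held its E-box from base 85 of the window and Cry1 from base 191. Per3 held 2 copies of TTATGTAA, from bases 46 and 93. The RORE core began at base 282 in Arntl, and in Per1 it lay on the opposite strand, where it reads TGACCT, from base 114. The printed window of Npas2 held none of the 3 motifs, which says only that these letters are not in these 300 bases. E-boxes were in the windows of 2 of 9 members, D-boxes in 1 and RORE cores in 3. Counted by window, these were 2, 1 and 3 of the 13 windows of the members. Of all 32851 windows in the RefSeq set, 7.15% held an E-box, 1.06% a D-box and 16.3% a RORE core, so the short RORE core in particular is common.

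The files give expression as TPM, a read count divided by gene length and scaled to the same total in each library, printed to 1 decimal, so levels of different genes can be set side by side. In ND the members spanned a wide range of levels, with Per1 highest at 98.1 ± 1.13 TPM and Per3 lowest at 0.90 ± 0.14 TPM (SD, n = 2). Between them the mean levels in ND ran in the order Nr1d1, Cry2, Dbp, Cry1, Per2, Arntl, Clock and Npas2. The values of neighbors in this order did not overlap except for Npas2 and Per3. In HFD the order kept Per1, Nr1d1 and Cry2 at the top and Per3 at the bottom, whereas Npas2 moved from place 9 to place 6. Cry1 and Dbp, Npas2 and Per2, and Clock and Arntl overlapped with each other in HFD.

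**Figure D1:**
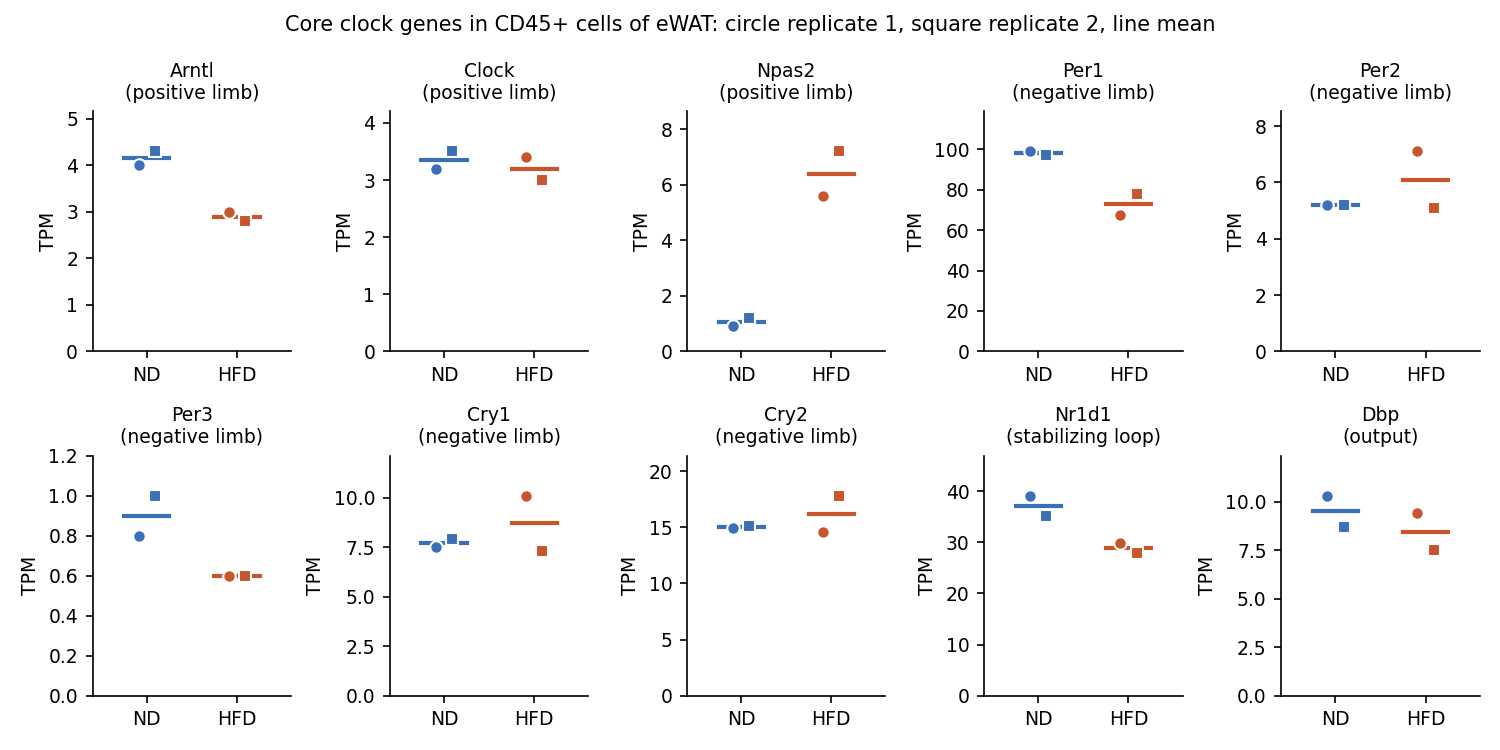
TPM (vertical axes, each from 0) of the 10 clock genes in the ND (blue) and HFD (orange) libraries; circles are replicate 1, squares replicate 2 and lines the mean of 2 libraries. Npas2 stands at 0.9 and 1.2 TPM in ND and at 5.6 and 7.2 TPM in HFD, and most other genes have close or overlapping groups.

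Among the positive limb genes, Npas2 was higher in HFD while Clock and Arntl were not. Npas2, on chromosome 1 from 39193731 to 39363236 of mm10 in GENCODE vM21, had 0.9 and 1.2 TPM in the ND libraries and 5.6 and 7.2 TPM in the HFD libraries. Both HFD values lay far above both ND values. At the lengths of its exons in GENCODE vM21, these levels stand for about 61.4 and 94.8 reads with ND against 434 and 485 with HFD, so the ND level rests on few reads. The mean rose from 1.05 ± 0.21 to 6.40 ± 1.13 TPM (SD, n = 2 each), a 6.10-fold ratio of the means. On the log2(TPM + 1) scale, which understates changes of low genes, the log2 fold change of Npas2 was 1.85 (standard error 0.17, 95% interval 1.34 to 2.36, adjusted p = 0.0119 in limma with Benjamini-Hochberg adjustment over all genes tested). Npas2 ranked 223 by log2 fold change among the 1361 genes that rose by at least 1.5-fold with an adjusted p-value under 0.05, the rule for a call used throughout. Without ND replicate 1 or ND replicate 2, the log2 fold change of Npas2 was 1.74 and 1.95 with adjusted p-values of 0.172 and 0.162 in limma, and in these 2 fits no gene of the whole set was called. Without HFD replicate 1 or 2 it was called, at 2.004 and 1.691.

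Clock, the usual partner of BMAL1, had 3.2 and 3.5 TPM with ND against 3.4 and 3.0 with HFD, and the groups overlapped. Its log2 fold change was -0.051 (95% interval -0.38 to 0.27, adjusted p = 0.756 in limma), and without HFD replicate 2 it was 0.0173. Arntl, the obligate member of the pair, had 4.0 and 4.3 TPM with ND against 3.0 and 2.8 with HFD. Both HFD values of Arntl lay below both ND values, with a log2 fold change of -0.40 (standard error 0.10, 95% interval -0.69 to -0.11), but the adjusted p-value in limma was 0.0641 and the change did not reach 1.5-fold.

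The balance between the partners of BMAL1 therefore differed between the diets at the level of message. The ratio of Npas2 to Clock TPM was 0.281 and 0.343 in the ND libraries and 1.65 and 2.40 in the HFD libraries. Npas2 made up 22.0% and 25.5% of the summed TPM of both partners in ND and 62.2% and 70.6% in HFD. The sum itself was 4.1 and 4.7 TPM with ND against 9.0 and 10.2 with HFD. Set against Arntl, the partners stood at 1.03 and 1.09 times its TPM in ND and at 3.0 and 3.64 times in HFD. In none of these 4 quantities did the diets overlap. They restate the TPM values of these genes and were not tested separately.

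**Figure D2:**
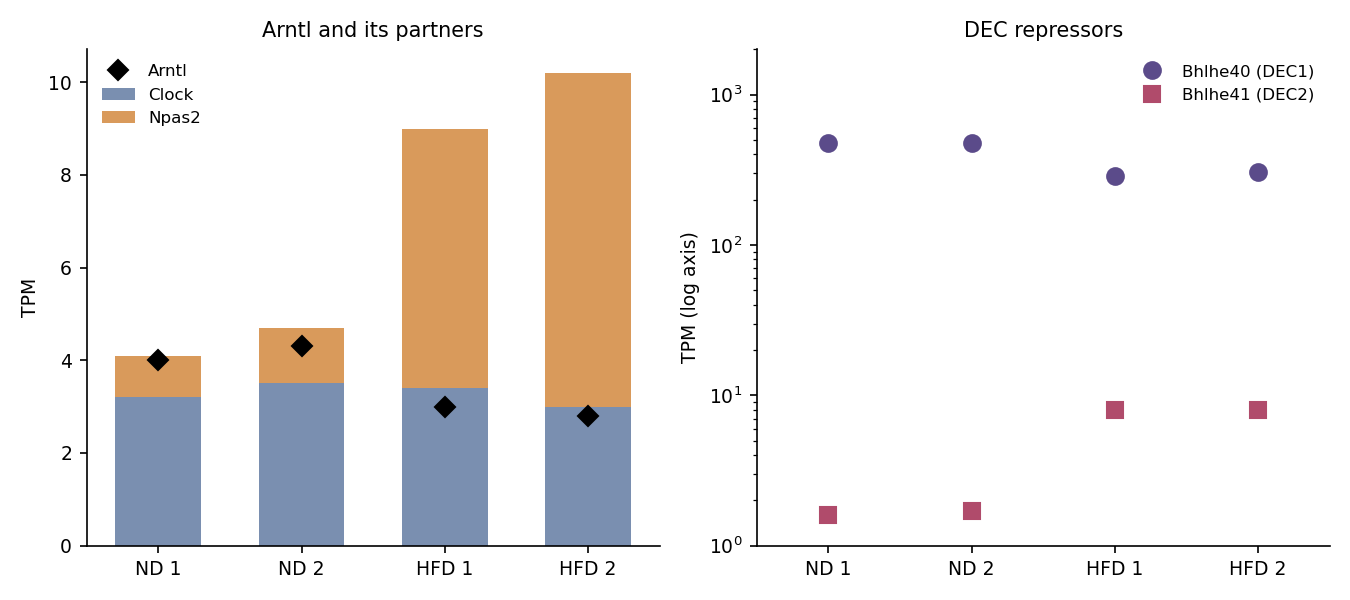
Left, TPM of Clock and Npas2 stacked for each library with Arntl as diamonds; right, TPM of Bhlhe40 (circles) and Bhlhe41 (squares) on a log axis. The Npas2 part is at most 1.2 TPM in ND and at least 5.6 TPM in HFD, and Bhlhe41 goes from 1.6 and 1.7 TPM in ND to 8.0 TPM in both HFD libraries while Bhlhe40 is lower there.

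None of the negative limb genes was called. Per1, the most abundant member and a gene that is also induced within minutes by glucocorticoids and by many immediate stimuli, had 98.9 and 97.3 TPM with ND against 67.3 and 78.1 with HFD. Both HFD values lay below both ND values. The log2 fold change of Per1 was -0.43 (standard error 0.09, 95% interval -0.70 to -0.16) and its adjusted p-value in limma was 0.0497, so it passed the limit on the p-value, by a narrow margin, but not that on the fold change. The adjusted p-value of Per1 in limma was 0.051 with a pseudocount of 0.1, 0.0683 without a variance trend, 0.11 with a replicate block, 0.117 after median-ratio scaling and 0.149 without a filter. Without ND replicate 1 or 2 it was 0.288 and 0.269. Per2 had 5.2 TPM in both ND libraries and 7.1 and 5.1 TPM in HFD. Per3 had 0.8 and 1.0 TPM in ND and 0.6 TPM in both HFD libraries, approximately 109, 158, 93.3 and 81.1 reads, and did not reach the minimum of 1 TPM in 2 samples set for the test. In a fit with no such minimum, the log2 fold change of Per3 was -0.25 (95% interval -0.52 to 0.033, adjusted p = 0.252 in limma).

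Per1 alone made up 94.3% and 94.0% of the summed TPM of the 3 Per genes in ND and 89.7% and 93.2% in HFD. That sum was 104.9 and 103.5 TPM with ND against 75.0 and 83.8 with HFD.

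Each of the cryptochromes, the direct inhibitors of the BMAL1 pair, showed overlapping groups. Cry1 had 7.5 and 7.9 TPM with ND against 10.1 and 7.3 with HFD. Cry2 had 14.9 and 15.1 TPM with ND against 14.6 and 17.8 with HFD. The log2 fold changes were 0.14 for Cry1 (95% interval -0.39 to 0.67, adjusted p = 0.604 in limma) and 0.10 for Cry2 (95% interval -0.26 to 0.46, adjusted p = 0.594). For Per2 it was 0.18 (95% interval -0.34 to 0.71, adjusted p = 0.508 in limma). The summed TPM of Cry1 and Cry2 did not overlap, at 22.4 and 23.0 with ND against 24.7 and 25.1 with HFD, and this sum was not tested. The intervals reach past a 1.5-fold change for Per2 and Cry1, and within it for Cry2.

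The higher means of Per2 and Cry1 in HFD rested on replicate 1. HFD replicate 1 had 1.39 times the Per2 and 1.38 times the Cry1 TPM of HFD replicate 2, and without it the log2 fold changes were -0.0235 and -0.0675. HFD replicate 1 also stood apart in transcripts of spermatids, 8 of which (Prm1 and Prm2 among them) summed to 7362.5 TPM there, against 2218.3 TPM in the other HFD library and 1936.9 and 1963.5 TPM with ND. The part of these transcripts in the values of Per2 and Cry1 was not tested. Cry2 was instead higher in HFD replicate 2, and without that library its log2 fold change was -0.0365.

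Nr1d1, the repressor of the stabilizing loop, was the second most abundant member. It had 39.1 and 35.2 TPM with ND against 29.9 and 27.9 with HFD, and the groups did not overlap. Its log2 fold change was -0.35 (standard error 0.08, 95% interval -0.60 to -0.10), with an adjusted p-value of 0.0624 in limma. Nr1d1 and Thra, a thyroid hormone receptor gene on the opposite strand of chromosome 11, share 263 exon bases in GENCODE vM21, and whether reads were counted by strand is not stated. Thra had a log2 fold change of -0.36 (adjusted p = 0.0287 in limma), close to that of Nr1d1 and under 1.5-fold as well. Dbp, the output factor, had 10.3 and 8.7 TPM with ND against 9.4 and 7.5 with HFD. The groups overlapped, and the log2 fold change of Dbp was -0.16 (95% interval -0.62 to 0.31, adjusted p = 0.525 in limma). It was -0.045 and -0.27 without ND replicate 1 or 2, and -0.30 and -0.0096 without HFD replicate 1 or 2. Dbp shares 539 exon bases with Sphk2 on the opposite strand, which was at 13.1 and 13.6 TPM with ND against 16.3 and 14.4 with HFD. Cry2 shares 295 exon bases with D930015M05Rik, a noncoding gene at 7.1 and 6.6 TPM with ND against 5.9 and 7.5 with HFD.

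Of the 9 members tested, 1 was called and 8 were not. Among all 16849 genes 18.4% were called in either direction, 8.08% as higher and 10.3% as lower in HFD, so the share of members called was not above the background. Higher genes made up 43.9% of all calls, and 62.6% (2650 of 4232) without HFD replicate 2. By the adjusted p-value alone 2 members passed, Npas2 and Per1, and 27.3% of all genes did. Which members pass by the p-value alone depends on the setting: Per1 did not in the fits named above, and other members passed in some. Arntl passed with no variance trend and with rescaling without the 50 most abundant genes (adjusted p = 0.0437 and 0.0473 in limma). Nr1d1 passed with that rescaling, after quantile normalization and with a mean TPM of at least 5 (adjusted p = 0.0459, 0.0465 and 0.0495 in limma), and Per2 without HFD replicate 2 (adjusted p = 0.0444). Both HFD values lay above both ND values for 1 member and below for 3, against 34.1% and 32.8% of all genes, and 5 members overlapped. The log2 fold changes of 8 members were smaller than 0.5 in size, as were those of 67.3% of all genes. The median was -0.051 over the members and 0.056 over all genes tested.

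**Figure D3:**
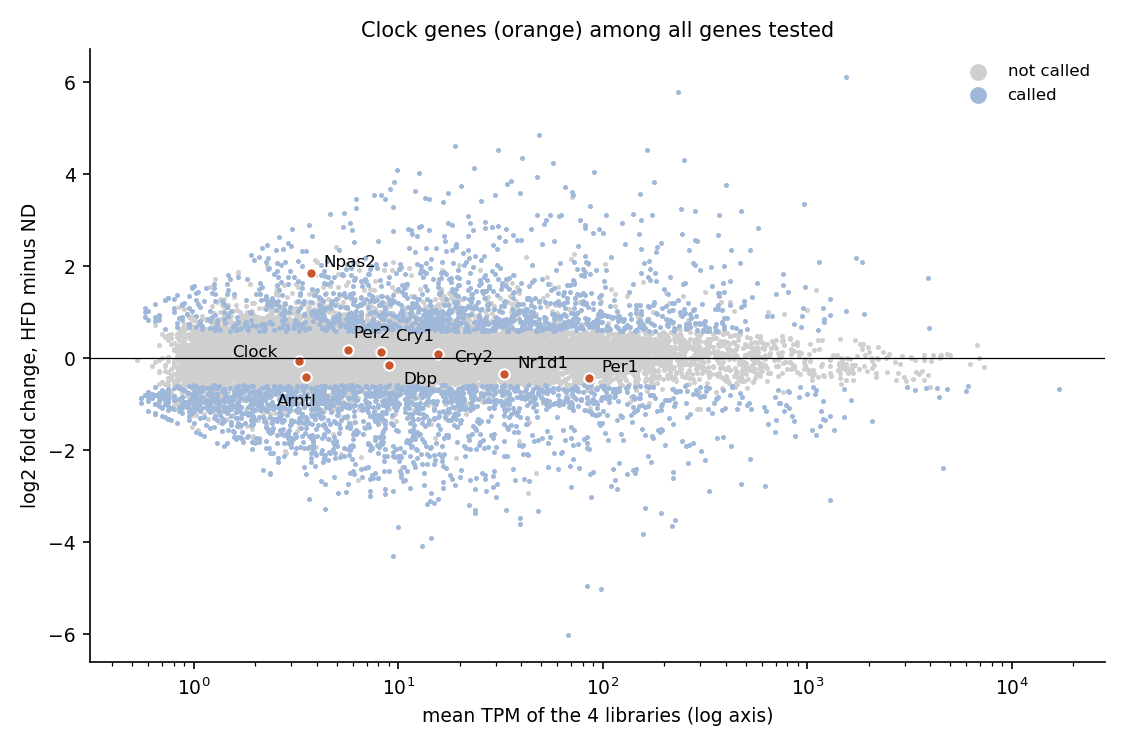
Log2 fold change between HFD and ND (vertical axis) against the mean TPM of the 4 libraries (log axis) for the 16849 genes tested, called genes in blue and others in gray, with the 9 clock genes tested in orange. Npas2 lies at 1.85 and the other 8 lie between -0.43 and 0.18.

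Positive and negative limb were then compared within each library as the mean log2(TPM + 1) of their members. The negative limb lay at 3.44 and 3.48 in ND and at 3.45 and 3.38 in HFD. This mean joins members with log2 fold changes of both signs, none of them called. Per1 was at -0.43, and Per2, Cry1 and Cry2, each with overlapping groups, were at 0.18, 0.14 and 0.10. The Per genes alone lay at 3.37 and 3.42 in ND and at 3.26 and 3.20 in HFD. The Cry genes alone lay at 3.54 and 3.58 in ND and at 3.72 and 3.64 in HFD. Neither mean overlapped between the diets. Among all single genes, 34.1% lay higher and 32.8% lower in HFD without overlap. The positive limb lay at 1.77 and 1.90 in ND and at 2.29 and 2.32 in HFD. The positive minus the negative limb was therefore -1.67 and -1.58 in ND and -1.158 and -1.055 in HFD, a mean of -1.62 ± 0.06 and -1.11 ± 0.07 (SD, n = 2 each). This shift of 0.52 toward the positive limb came from Npas2. Without Npas2 the difference of the limbs was -1.24 and -1.20 in ND and -1.38 and -1.41 in HFD, a shift of -0.175 in the opposite direction. The shift with Npas2 was 0.739 with a pseudocount of 0.1 and 0.262 with one of 5, and it was -0.194 with the median in place of the mean over each limb, a choice made after seeing the data. No test was made of these scores, since the members were chosen with earlier results known.

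**Figure D4:**
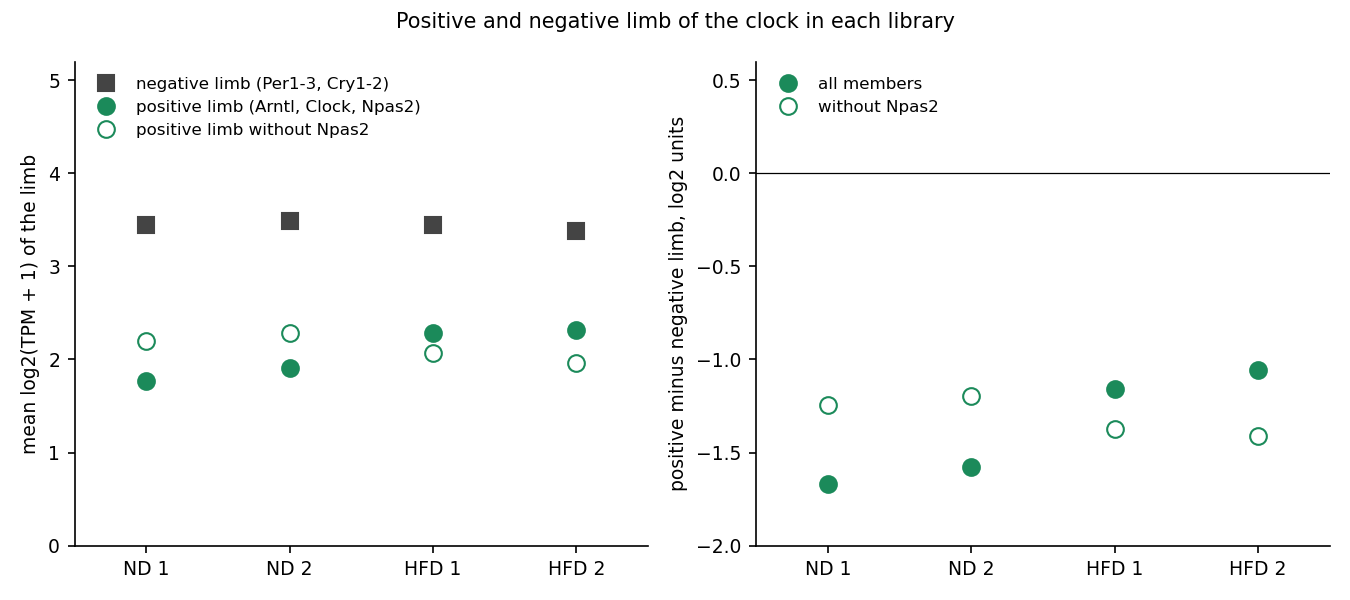
Left, mean log2(TPM + 1) of the negative limb (squares) and of the positive limb with (filled circles) and without Npas2 (open circles) in each library; right, the positive minus the negative limb, in log2 units. With Npas2 the difference moves from about -1.62 in ND to -1.11 in HFD, and without it from -1.22 to -1.40.

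Beyond the 10 members, 34 further clock genes were read, of which 29 were tested. Of these, 3 rose and 2 fell in HFD and 24 were not called, with a median log2 fold change of 0. The called share of 5 in 29 is close to the 18.4% of all genes. Bhlhe41 and Bhlhe40 encode DEC2 and DEC1, related repressors that compete for E-boxes, and they moved in opposite directions. Bhlhe41 rose from 1.6 and 1.7 TPM in ND to 8.0 TPM in both HFD libraries, which limma put at 1.76 on the log2 scale (standard error 0.09, adjusted p = 0.00559). Bhlhe40 fell from 473.3 and 477.7 TPM to 288.3 and 305.0 TPM, which limma put at -0.68 on the log2 scale (standard error 0.04, adjusted p = 0.00768). Bhlhe40 thus remained the more abundant by far, and the ratio of Bhlhe41 to Bhlhe40 TPM was 0.00338 and 0.00356 in ND and 0.0277 and 0.0262 in HFD.

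Ciart, which encodes the repressor CHRONO, fell from 4.2 and 3.5 TPM to 1.8 and 1.6 TPM (log2 fold change -0.84, adjusted p = 0.0272 in limma). Its RefSeq promoter window holds 3 copies of the E-box. The window of Bhlhe41 and 1 of the 2 windows of Tspan4, genes that were higher in HFD, hold 1 each. No window was listed for Bhlhe40 or for Wee1, described below, so these were not searched. The call of Ciart was lost without any 1 library, with adjusted p-values in limma of 0.186 and 0.163 without ND replicate 1 or 2 and 0.0731 and 0.0720 without HFD replicate 1 or 2, while the log2 fold change stayed between -0.95 and -0.74. Rora, a ROR activator, and Nr1d2, the relative of Nr1d1, were not called, with log2 fold changes of -0.28 and -0.079.

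Among 6 genes known to be rhythmic in many mouse tissues, Wee1 and Tspan4 rose. Wee1, a kinase that holds cells before mitosis and a known E-box target of the clock, went from 9.1 and 9.7 TPM to 26.0 and 31.4 TPM (log2 fold change 1.51, standard error 0.12, adjusted p = 0.00977 in limma). Tspan4, a tetraspanin, went from 36.5 and 38.0 TPM to 58.8 and 64.7 TPM (log2 fold change 0.71, adjusted p = 0.0137 in limma). The call of Tspan4 was lost with a replicate block (adjusted p = 0.0542 in limma) and after quantile normalization (log2 fold change 0.58, under 1.5-fold). The other 4, Tsc22d3, Nampt, Klf9 and Klf10, were not called. None of the 8 tested kinases, ubiquitin ligases and proteases that act on PER and CRY was called, with log2 fold changes from 0.032 for Csnk1e to 0.62 for Usp2. Usp2, a rhythmic deubiquitinase, had 1.5 and 1.6 TPM with ND, and its HFD libraries lay apart at 4.3 and 1.9 TPM. None of the 8 coactivators and corepressors was called either, with log2 fold changes from -0.39 for Ncoa3 to 0.18 for Hdac3. Of the D-box factors tested, Tef (-0.20, adjusted p = 0.341 in limma) and Nfil3 (-0.57, adjusted p = 0.107) did not pass the test. Without ND replicate 1 or 2 none of the 5 calls remained in limma, with adjusted p-values from 0.161 to 0.186.

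**Figure D5:**
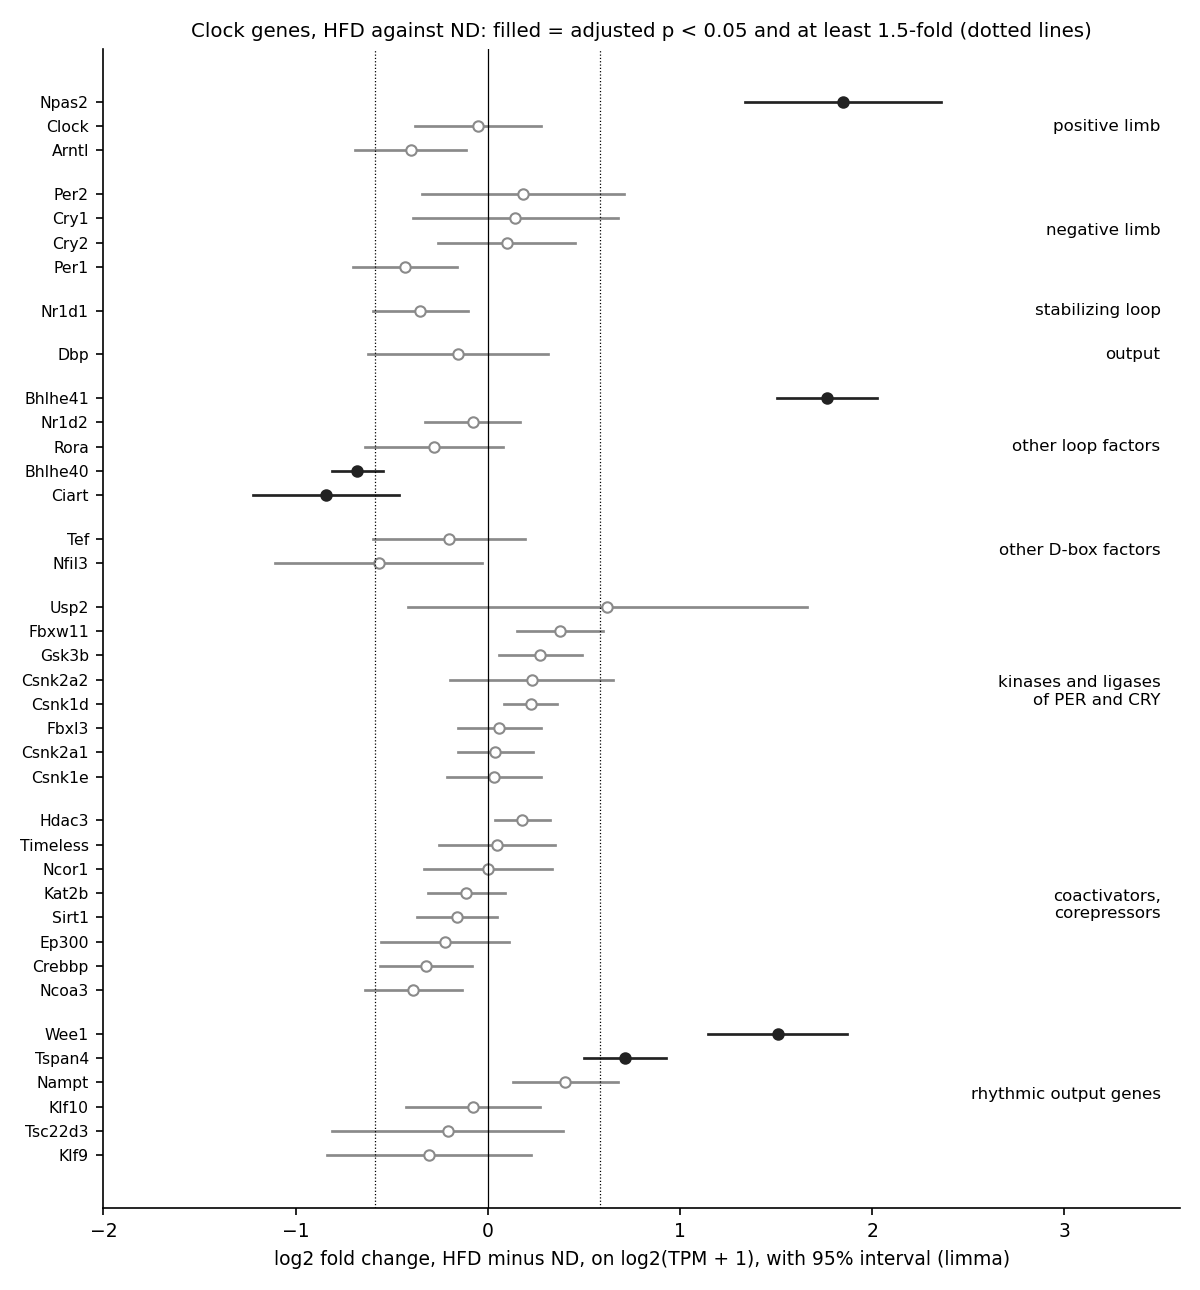
Log2 fold change between HFD and ND with its 95% interval (horizontal axis) for the 9 clock genes and 29 further clock genes tested, grouped by role. Filled points (Npas2, Bhlhe41, Bhlhe40, Ciart, Wee1 and Tspan4) passed the adjusted p-value of 0.05 and the 1.5-fold limit drawn as dotted lines.

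Because Per1 is also an early response gene, lists of such genes were read beside it. All 8 immediate early genes measured, such as Fos, Egr1 and Jun, fell in HFD, with log2 fold changes from -1.55 to -0.63 and a median of -0.81. Of 8 genes of the glucocorticoid response, a list that includes Per1, Sgk1 rose (1.43, adjusted p = 0.0107 in limma) and Zbtb16 fell (-0.62, adjusted p = 0.0222). The other 6 were not called, and of all genes 18.4% were called. Dusp1, a phosphatase gene of this list, had 3609.6 and 3504.2 TPM with ND against 2497.2 and 2589.2 with HFD (-0.48, adjusted p = 0.00957 in limma), under the 1.5-fold limit like Per1. Both HFD values lay below both ND values for 5 of the 8 genes, Per1 itself among them, and for 32.8% of all genes. The median log2 fold change of the list was -0.38. Klf9, Tsc22d3, Fkbp5 and Ddit4 had adjusted p-values in limma of 0.292, 0.502, 0.336 and 0.335. The part of these responses in the level of Per1 was not tested.

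The makeup of the libraries moved with the diet too, and in bulk RNA fewer cells of a type and less RNA per cell cannot be told apart. Ptprc, the gene of CD45, was present at 53.7 to 59.4 TPM in every library. Of the 4 general leukocyte markers, Ptprc among them, only Coro1a was called. Coro1a fell from 298.0 and 293.7 TPM to 169.0 and 192.4 TPM (log2 fold change -0.71, adjusted p = 0.0161 in limma). Laptm5 had 853.7 and 822.1 TPM with ND against 786.3 and 790.6 with HFD. Cd53 had 426.8 and 450.2 TPM with ND against 422.9 and 450.8 with HFD. The 7 fibroblast markers had higher values in both HFD libraries (5 of them called), with sums of 593.5 and 637.8 TPM in ND and of 3031.9 and 6063.6 TPM in HFD replicates 1 and 2. All 6 markers of lipid-associated macrophages rose, from sums of 1024.6 and 1073.4 TPM to 7793.3 and 8164.8 TPM, while those of B cells, neutrophils and mast cells fell, each in 5 of 5 genes. All 6 T cell markers measured, such as Cd3e, fell as well, from sums of 367.4 and 371.2 TPM with ND to 58.8 and 69.9 with HFD. Of the 5 adipocyte markers tested, Cfd, the gene of adipsin, fell from 26.3 and 24.6 TPM to 0.9 and 0.3 TPM (log2 fold change -4.07, adjusted p = 0.00626 in limma) and Lep, the gene of leptin, rose from 0.7 and 1.1 TPM to 4.7 and 3.9 TPM (1.48, adjusted p = 0.0171). Their list summed to 46.8 and 44.6 TPM with ND against 21.4 and 14.4 with HFD. None of the 6 endothelial markers was called, with sums of 231.4 and 237.5 TPM with ND against 275.6 and 280.5 with HFD. Of the 9 general macrophage markers 2 rose and 2 fell, and no marker in these lists stood at 0 in any library. The TPM of Npas2 in HFD replicate 2 was 1.29 times that in HFD replicate 1. Between the same libraries the sum of lipid-associated macrophage markers was 1.05 times as high and that of fibroblast markers 2.0 times. The part of any of these cell types in the values of the clock genes was not tested.

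The genes with the most similar profiles to Arntl, Dbp and Npas2 were sought by the Euclidean distance of log2(TPM + 1), centered on its mean over the 4 libraries. For Arntl these were Gatsl2, Gigyf1 and Chd2 (distances 0.00978, 0.0162 and 0.0178), and 2309 genes lay within 0.25. For Dbp these were Gm41719, Lsmem1 and Gm38499 (distances 0.041, 0.052 and 0.0588), with 1022 genes within 0.25. Npas2, added to this search after its values were seen, was closest to Hmcn2, Ptgfrn and Cspg4 (distances 0.088, 0.109 and 0.133), with 30 genes within 0.25. Since the values are centered but not scaled, a gene with a large change has fewer genes within a given distance, and these counts do not compare how common the profiles are. Hmcn2 had 0.9 and 1.1 TPM with ND against 5.3 and 7.4 with HFD, nearly the values of Npas2. With 4 libraries these distances are a description.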

How the data were processed

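RNA-seq of CD45+ cells from eWAT was analysed in 2 ND and 2 HFD libraries, grouped by their labels. The authors prepared stranded mRNA libraries, trimmed reads with Trim Galore 0.4.2 and cutadapt 1.9.1, aligned them to mm10 with STAR 2.6.1e, removed duplicates with Sambamba and counted reads per gene with featureCounts 1.6.2 (versions per the submitters' processing notes). The deposited values are TPM per gene, printed to 1 decimal. The annotation and the strand setting are not given in the sources used here.

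Genes with at least 1 TPM in at least 2 samples were compared as log2(TPM + 1) with limma 3.58.1 in R 4.3.3 (lmFit, eBayes with a variance trend, two-sided), with Benjamini-Hochberg adjustment over all 16849 genes. Genes were called at an adjusted p-value below 0.05 if the change also reached 1.5-fold. The steps were tested on simulated data of the same size with 200 changed genes. They found most of the larger changes and missed every one of the smallest simulated, which were 2-fold. Far more genes were called in the real data, where the adjustment is less strict, so the simulated recovery does not carry over directly. Genes not called cannot be read as unchanged. TPM carry no depth, but TPM times length of microRNA genes of at most 120 bases fell on whole multiples of a step, from 0.0607 to 0.0711 TPM for 1 read per kb (215 to 245 genes per library, within 0.15 of a read). Read numbers for a gene use its GENCODE vM21 exon length and are approximate.

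The clock genes were those listed above, and the lists of further clock genes and markers were written from general knowledge. One item is not reported here. Members and lists were chosen with earlier results of these data known. Named genes were the members, genes of the lists and genes that overlap a member, and the nearest profiles to Arntl and Dbp. Alternatives were other pseudocounts, filters and scalings, no variance trend, a replicate block, other fold limits, other makeups of the limbs and each sample left out in turn. A median over each limb and the profile search for Npas2 were added after seeing the data. Figures were drawn with matplotlib 3.10.9.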

Additional observations from a re-analysis of the deposited data

How the results depend on the processing

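The call of Npas2 held under every alternative that tested it with 2 libraries per diet, with log2 fold changes from 0.91 (pseudocount of 5) to 2.50 (pseudocount of 0.1) and adjusted p-values in limma from 0.0108 to 0.0488. With a mean TPM of at least 5 as the filter, Npas2, Arntl and Clock were not tested, and 0 of 6 members were called in limma (2 had an unadjusted p under 0.05). With no limit on the fold change, 2 members were called. With each sample left out, 0 to 1 members, 0 to 6 further clock genes and 0 to 4232 of all genes were called. The lone library of a diet is then assumed to vary like the rest, and without ND replicate 1 or 2 the smallest adjusted p-value of any gene was 0.167 and 0.161, with 3862 and 4024 genes at an unadjusted p under 0.05. Across the same fits the log2 fold change ran from -0.12 to 0.0173 for Clock, from -0.0235 to 0.39 for Per2, from -0.0675 to 0.35 for Cry1 and from -0.0365 to 0.23 for Cry2, none of them called.

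Of all genes 3097 were called. A pseudocount of 5 left 2015 calls, the absence of a filter 1778 and a replicate block 812. Of the further clock genes 5 were called, and 3 with a mean TPM of at least 5 (fewer genes tested) and 3 with the replicate block. The block took the calls of Ciart and Tspan4 (adjusted p-values of 0.0869 and 0.0542 in limma), whereas Npas2 stayed called. Same-numbered samples did not deviate together (correlation -0.015), so the numbers were not taken as pairs. Ciart was also not called without a filter or with a pseudocount of 5, and Tspan4 not after quantile normalization.

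The shift of the limb difference was 0.516. It was 0.739 with a pseudocount of 0.1, 0.262 with one of 5, 0.63 with the Per genes and 0.345 with the Cry genes alone as the negative limb, -0.175 without Npas2, -0.194 with medians and 0.464 to 0.568 with each sample left out. The settings that drop or outvote Npas2 show only which member carries the score. The cause of the shift was not tested.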

Other observations

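Further clock genes lay below the level of the test. Arntl2, the relative of Arntl that can pair with CLOCK, was at 0.1 TPM in both ND and at 0.2 TPM in both HFD libraries, approximately 8.11 and 9.38 reads against 18.4 and 16.0. A fit with no filter gave Arntl2 a log2 fold change of 0.13 with an adjusted p of 0.00288 in limma, under 1.5-fold, where identical values at 1 printed decimal understate the spread. Rorb was listed at 0 in all 4 libraries. Hlf, a D-box factor related to Dbp, had 0.4 and 0.5 TPM in ND and 0.2 TPM in both HFD libraries, approximately 38.1 and 55.1 reads against 21.6 and 18.8, and a fit with no filter gave -0.27 with an adjusted p of 0.096 in limma. Fbxl21, a ubiquitin ligase of the CRY proteins, was at most 0.2 TPM. Btrc, a ubiquitin ligase of the PER proteins, had 0.8 TPM in both ND libraries and 1.1 and 0.9 TPM in HFD.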
